A study of Medicago truncatula and Hordeum vulgare with 90 samples.

Results

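SPX1 (Medtr3g107393) and SPX3 (Medtr0262s0060) of Medicago truncatula were followed through every root library of the species, 2 identifiers of the 50894 in the count tables, chosen by name. SPX proteins are the phosphate sensors of plant cells. Their SPX domain binds inositol pyrophosphates, which are plentiful when phosphate is plentiful, and in that state it holds back PHR transcription factors, the activators of phosphate starvation genes. In Arabidopsis and rice several SPX genes are themselves activated by PHR factors in starved roots, so that the sensor limits the response that induces it. In M. truncatula the encoded pair is known for a role in phosphate homeostasis and in the symbiosis with arbuscular mycorrhizal fungi, which deliver phosphate to the root. NSP1 and NSP2, the regulators varied in the study, are GRAS-domain transcription regulators required for nodulation signalling and for strigolactone biosynthesis.

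Whole roots were taken from seedlings after 15 days on plates. The genotypes were the nsp1-1 and nsp2-2 mutants, both in the A17 background, and A17 itself, the wild type. Each was grown without nitrate (+P-N), without phosphate (-P+N), without either (-P-N) and with both (+P+N). Hairy roots of A17, transformed by Agrobacterium rhizogenes, carried pLjUBI:3xFLAG-MtNSP1 (NSP1ox), pBdEF1a:3xMyc-MtNSP2 (NSP2ox), a form of the second transgene resistant to the microRNA miR171h (miRR-NSP2ox), or an empty vector (EV). After transformed roots had been selected, they were grown for 21 days with both nutrients. Per the study's methods, their medium held less phosphate than that of the seedlings at +P. The ubiquitin and elongation factor promoters of these constructs come from other plants and are broadly active, and only the roots of such plants are transformed. Each of the 12 seedling groups and 4 hairy root groups had 3 libraries, with 16194286 to 25030726 counts in seedling roots and 18251230 to 25919307 counts in hairy roots. The labels do not say whether libraries of a group came from separate plants, so p-values measure the spread between these libraries. In hairy roots, 28 genes of 2 unplaced scaffolds, SPX3 not among them, took 1.40% to 10.3% of the counts, the highest share in EV replicate 1.

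SPX3 was not detected. Its count was 0 in all 36 seedling libraries and in all 12 hairy root libraries, 991201043 counts in total. A count of 0 allows a level of up to 0.00404 CPM (counts scaled to library size) over the seedling libraries together and up to 0.0120 CPM over the hairy root libraries, taking 3 counts as the limit. The 0 was shared by many identifiers: 13253 of the 50894 (26.0%) had no count in any library, and 1255 of the 2556 identifiers on unplaced scaffolds (49.1%).

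The scaffold that carries SPX3 holds 4 identifiers. Medtr0262s0030 had 591 to 975 counts per seedling library and 367 to 616 counts per hairy root library. Medtr0262s0020 had 1 to 11 counts in seedling roots and 0 to 5 in hairy roots, and Medtr0262s0050 had none anywhere, like SPX3. Reads were assigned to the scaffold, but 2 of its 4 identifiers received none in any regime, genotype or transgene group. How reads that map to several places were counted is not stated, and its part in the 0 was not tested. SPX3 passed no filter and entered no comparison, and no ratio of SPX3 to SPX1 was formed. All comparisons that follow are of SPX1.

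SPX1 was a gene of low count that followed phosphate. It summed to 649 counts over the seedling libraries, more than only 11.4% of the 24630 genes tested there. Its counts in replicates scattered more than counting alone gives, with a chi-square of 1.76 per degree of freedom over the 12 seedling groups. Of the total of 42.3, 16.0 came from nsp1 at -P+N alone. Every seedling library without phosphate had at least 13 SPX1 counts, and every library with phosphate had at most 9.

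In A17, SPX1 had 3, 8 and 1 counts at +P-N. It had 23, 37 and 27 counts at -P+N and 39, 45 and 36 counts at -P-N, against 3, 1 and 5 counts at +P+N. After normalization by the trimmed mean of M-values (TMM) this was 0.184 ± 0.165 CPM at +P-N, 1.55 ± 0.31 CPM at -P+N, 1.60 ± 0.14 CPM at -P-N and 0.168 ± 0.103 CPM at +P+N (SD, n = 3). Both groups without phosphate stood apart from both groups with it, and on either side the libraries with and without nitrate overlapped.

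In nsp1, SPX1 had 1 count in each library at +P-N, 59, 21 and 27 counts at -P+N, 19, 29 and 34 counts at -P-N and 4, 1 and 1 counts at +P+N. The levels were 0.0445 ± 0.0044 CPM at +P-N, 1.92 ± 0.90 CPM at -P+N, 1.20 ± 0.28 CPM at -P-N and 0.108 ± 0.090 CPM at +P+N (SD, n = 3). The first -P+N library, at 2.90 CPM, was the highest of all 36. Of the other libraries of its group, that at 1.72 CPM lay within the range of A17 at -P+N (1.27 to 1.88 CPM) and that at 1.14 CPM lay below it.

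In nsp2, SPX1 had 5, 9 and 6 counts at +P-N, 13, 27 and 21 counts at -P+N, 30, 37 and 53 counts at -P-N and 9, 8 and 5 counts at +P+N. The levels were 0.320 ± 0.108 CPM at +P-N, 0.970 ± 0.275 CPM at -P+N, 1.69 ± 0.38 CPM at -P-N and 0.378 ± 0.084 CPM at +P+N (SD, n = 3). The lowest library without phosphate (0.659 CPM, nsp2 at -P+N) and the highest with phosphate (0.460 CPM, nsp2 at +P+N) were both from this mutant, so its gap between the phosphate states was the narrowest of the 3 genotypes.

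**Figure D1:**
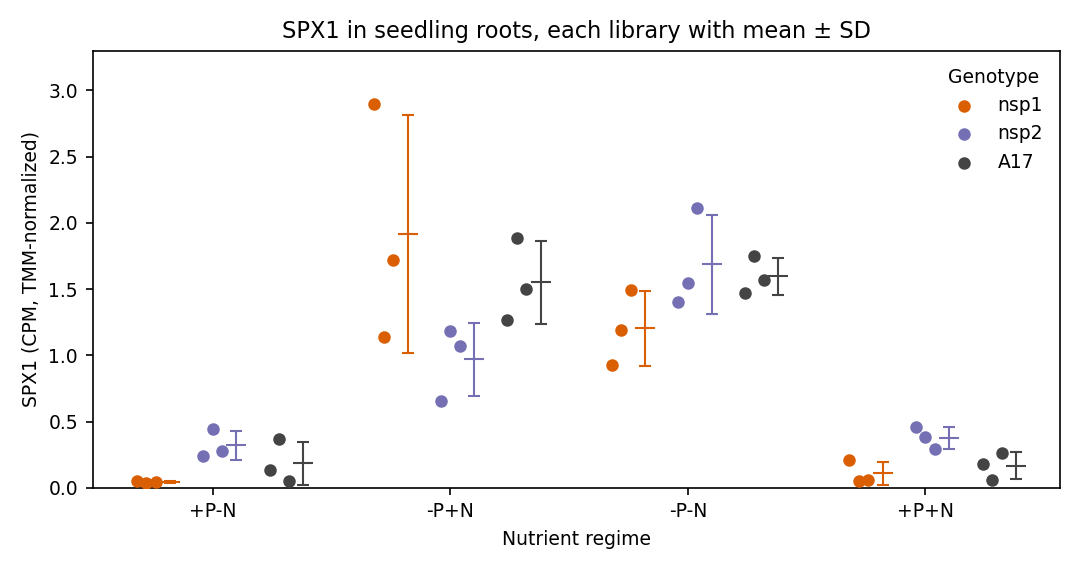
SPX1 level (TMM-normalized CPM) in each of the 36 seedling root libraries by nutrient regime and genotype, with the mean and SD of each group beside its points. The 18 libraries without phosphate sit between 0.659 and 2.90 CPM, all above the 18 with phosphate, which reach 0.460 CPM at most.

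Ordered by mean level, the highest group was nsp1 at -P+N, then nsp2 and A17 at -P-N, A17 at -P+N, nsp1 at -P-N and nsp2 at -P+N. Below these lay nsp2 at +P+N, nsp2 and A17 at +P-N, A17 and nsp1 at +P+N, and last nsp1 at +P-N. Neighbours in this order had overlapping libraries in all but 2 places. One was the step between nsp2 at -P+N and nsp2 at +P+N, where the phosphate states meet. The other was the last step, within nsp1 with phosphate, where 5 of the 6 libraries held a single SPX1 count.

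Removal of phosphate raised SPX1 in all 3 genotypes. Each comparison was made on its own 6 libraries with edgeR's quasi-likelihood test, with p-values adjusted over all genes and a threshold of 0.05. In A17, SPX1 was 9.07-fold higher at -P+N than at +P+N on the summed counts (87 against 9 counts, 95% counting interval 4.57 to 20.5), a fitted log2 fold change of 3.14 ± 0.44 (SE, adjusted p = 0.000267). Of all genes tested, 14.4% were called higher in that comparison. At -P-N it was 9.29-fold higher than at +P+N (4.73 to 20.8), with a log2 fold change of 3.16 ± 0.40 (adjusted p = 2.94e-05), where 30.4% of genes were called higher.

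Removal of nitrate alone gave no called change. At +P-N against +P+N in A17 the log2 fold change was 0.09 ± 0.79 (adjusted p = 0.933), a comparison in which 57% of genes were called. With 12 counts against 9, the ratio was 1.08 with a counting interval of 0.418 to 2.91, so changes within that range were not detectable at this depth. Without phosphate the precision was better. At -P-N against -P+N, where 46.7% of genes were called, SPX1 had 120 against 87 counts, a ratio of 1.02 (0.771 to 1.37) and a log2 fold change of 0.03 ± 0.24 (adjusted p = 0.939). At -P-N against +P-N, phosphate removal in the absence of nitrate, SPX1 was 8.59-fold higher (4.74 to 17.1), with a log2 fold change of 3.08 ± 0.44 (adjusted p = 0.000504), the 23rd largest of 24630 genes, and 13% of genes were called higher. Without +P-N replicate 2 of A17, which held 8 of the 12 counts of that group, the log2 fold change was 4.03 (adjusted p = 0.000428).

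The same directions were found in the mutants. In nsp1, SPX1 was 17.8-fold higher at -P+N than at +P+N (7.90 to 49.5), with a log2 fold change of 4.07 ± 0.56 (adjusted p = 4.37e-05), and 11.0-fold higher at -P-N (4.84 to 30.8), with a log2 fold change of 3.39 ± 0.51 (adjusted p = 5.52e-05). Of all genes, 26.5% and 30.7% were called higher in the -P+N and the -P-N comparison. The +P+N group of nsp1 held only 6 counts, and without its first +P+N library the log2 fold changes were 4.96 at -P+N and 4.29 at -P-N. For nsp1 at +P-N against +P+N the ratio was 0.400 (3 against 6 counts, 0.0647 to 1.87) with an adjusted p of 0.337, and 57.5% of genes were called.

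In nsp2, SPX1 was 2.57-fold higher at -P+N than at +P+N (61 against 22 counts, 1.55 to 4.39), with a log2 fold change of 1.36 ± 0.39 (adjusted p = 0.0209), and 17.4% of genes were called higher. This call was near the threshold. It was lost when either of -P+N replicates 2 and 3 or either of +P+N replicates 2 and 3 was left out (log2 fold changes of 1.19, 1.29, 1.36 and 1.22, adjusted p = 0.063, 0.0676, 0.0566 and 0.0641). At -P-N the gene was 4.46-fold higher (2.82 to 7.39), with a log2 fold change of 2.13 ± 0.34 (adjusted p = 0.000224), and 29.7% of genes were called higher. At +P-N against +P+N the ratio was 0.835 (0.432 to 1.60), adjusted p = 0.64, with 57% of genes called.

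Within a genotype the 3 regimes were set against the same +P+N libraries. The response to phosphate did not depend detectably on nitrate. The product of phosphate and nitrate removal had a log2 value of -0.09 ± 0.73 in A17 (adjusted p = 0.954), 0.54 ± 0.95 in nsp1 (adjusted p = 0.713) and 1.04 ± 0.54 in nsp2 (adjusted p = 0.254), while 22.3% of genes were called in A17, 29.6% in nsp1 and 10.1% in nsp2. Averaged over the 3 genotypes and both nitrate states, in a fit of all 36 libraries that was added after the values had been seen, SPX1 was higher without than with phosphate by 3.10 ± 0.19 on the log2 scale (adjusted p = 2.56e-15). That was the 27th largest of 24630 log2 fold changes in a contrast where 31.5% of genes were called higher. Averaged in the same way, -N against +N gave -0.20 ± 0.22 (adjusted p = 0.415) for SPX1, while 77.2% of all genes were called. That average joins opposite shifts in the mutants without phosphate. From -P+N to -P-N the mean went from 1.92 to 1.20 CPM in nsp1, with overlapping libraries. In nsp2 it went from 0.970 to 1.69 CPM, without overlap (at most 1.18 against at least 1.40 CPM). These 2 groups were compared directly only in A17.

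SPX1 passed the filter on low counts through the groups without phosphate alone. All 18 of those libraries, and none of the others, exceeded the minimum of 0.492 CPM, so its presence among the genes tested already required a difference of this kind. The sizes above describe a gene with at most 9 counts per library when phosphate was given, and the rank among tested genes is to be read with that limit.

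**Figure D2:**
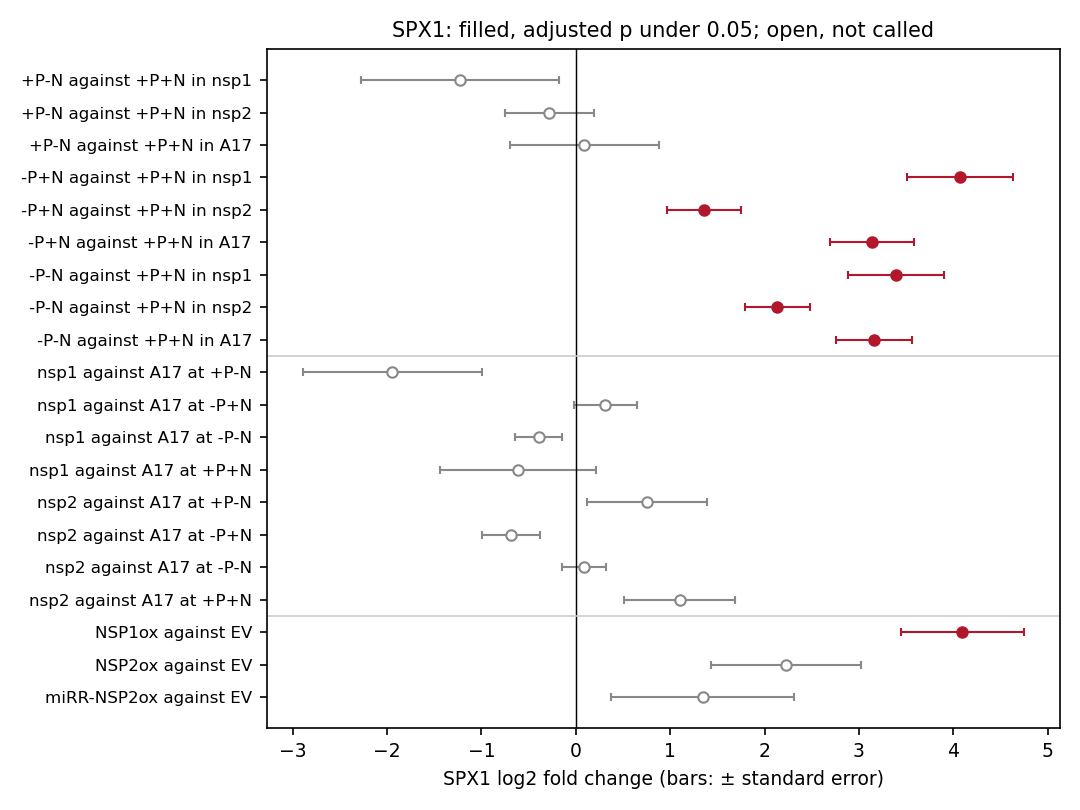
Log2 fold change of SPX1 with its standard error in 20 pairwise comparisons, first each regime against +P+N, then each mutant against A17 and last each overexpression line against EV. Filled points mark adjusted p under 0.05, which were the 6 comparisons of a regime without phosphate and NSP1ox against EV.

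In a single regime, neither mutant differed from A17 in SPX1 by the test. For nsp1, the log2 fold change against A17 was -1.95 ± 0.95 at +P-N (3 against 12 counts, adjusted p = 0.334), 0.31 ± 0.34 at -P+N (107 against 87 counts, adjusted p = 0.51), -0.39 ± 0.25 at -P-N (82 against 120 counts, adjusted p = 0.512) and -0.61 ± 0.83 at +P+N (6 against 9 counts, adjusted p = 0.734). Without A17 replicate 2 the value at +P-N was -0.99 (adjusted p = 0.776). The shares of all genes called were 4.45%, 32.6%, 2.4% and 6.35% in these regimes. Without phosphate the ratios of nsp1 to A17 were 1.26 (0.939 to 1.69) at -P+N and 0.760 (0.567 to 1.01) at -P-N. At +P-N the ratio was 0.238 (0.0430 to 0.880), with an interval below 1 that covers counting error only.

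For nsp2, the log2 fold change against A17 was 0.75 ± 0.64 at +P-N (20 against 12 counts, adjusted p = 0.517), -0.69 ± 0.30 at -P+N (61 against 87 counts, adjusted p = 0.119), 0.09 ± 0.24 at -P-N (120 against 120 counts, adjusted p = 0.877) and 1.10 ± 0.59 at +P+N (22 against 9 counts, adjusted p = 0.32). Without A17 replicate 2 the value at +P-N was 1.70 (adjusted p = 0.191). The shares of genes called were 11.4%, 27.8%, 5.58% and 4.52%. The libraries of nsp2 and A17 did not overlap at -P+N, where those of nsp2 were lower, nor at +P+N, where those of nsp2 were higher. The ratios of nsp2 to A17 were 0.628 (0.445 to 0.882) at -P+N and 2.22 (0.983 to 5.48) at +P+N, with intervals of counting error only. The mutants themselves overlapped at -P+N, with 61 counts in nsp2 against 107 in nsp1 and a ratio of 0.499 (0.359 to 0.690), log2 fold change -1.0 ± 0.38 (adjusted p = 0.123, with 9.4% of genes called). Without nsp1 replicate 1 that value was -0.55 (adjusted p = 0.46).

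The apocarotenoid genes named by the study gave a contrast in the same libraries. The list holds PSY (phytoene synthase, the entry to carotenoid synthesis), D27 (the carotene isomerase at the start of strigolactone synthesis) and 6 others (GGPPS, ZAS, CYP722C, CRTISO, NSY and LUT5), and was chosen by the study on these libraries, so its direction is not independent evidence. All 8 were called higher in A17 in each of the regimes +P-N, -P+N and -P-N, with median log2 fold changes of 2.31, 3.16 and 3.57, against medians of all genes between 0.00 and 0.01 and shares called higher of 28.5%, 14.4% and 30.4%. The log2 fold change of D27 was 2.29 without nitrate, 3.18 without phosphate and 3.72 without either. In roots deprived of phosphate only, the 8 were all lower in nsp1 than in A17 (median -2.75, where 17.2% of genes were lower) and all lower in nsp2 than in A17 (median -1.57, where 15.1% were lower). SPX1 had its own values in these comparisons, 0.09, 3.14 and 3.16 in the regimes and 0.31 and -0.69 in the mutants.

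The regime with phosphate separated the mutants from each other. This was seen in the values first and then fitted. Over both +P regimes, SPX1 had 5 to 9 counts in each of the 6 nsp2 libraries, against 4 in 1 nsp1 library and 1 in the other 5, and the levels did not overlap (0.243 CPM and above in nsp2, 0.212 CPM and below in nsp1). All of these levels were under the filter minimum of 0.492 CPM. The log2 fold change of nsp2 against nsp1 averaged over +P was 2.21 ± 0.49 (adjusted p = 0.0011), with 10.9% of genes called higher. A17 lay between them: the averaged contrast with phosphate was 0.94 ± 0.40 for nsp2 against A17 (adjusted p = 0.104, 18.1% of genes called) and -1.27 ± 0.56 for nsp1 against A17 (adjusted p = 0.151, 9.78% of genes called). Without A17 +P-N replicate 2, which held 8 of the 12 counts of its group, the value for nsp2 against A17 was 1.42 (adjusted p = 0.0247).

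Averaged over the regimes without phosphate, the mutants did not differ by the test. The log2 fold change was -0.04 ± 0.22 for nsp1 against A17 (adjusted p = 0.908, with 31.9% of genes called), -0.29 ± 0.22 for nsp2 against A17 (adjusted p = 0.323, 37.8%) and -0.25 ± 0.23 for nsp2 against nsp1 (adjusted p = 0.503, 17.7%). These averages join unlike values at -P+N and -P-N. For nsp1 against A17 these were 0.31 and -0.39, and for nsp2 against A17 -0.69 and 0.09, none of them called. At -P+N, nsp2 against nsp1 was -1.0, not called on its own libraries but called with all groups in one fit. The averages therefore do not show that the mutants were alike in each regime.

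The phosphate response itself, -P against +P averaged over nitrate, was smaller in nsp2 than in nsp1, with a log2 difference of -2.47 ± 0.54 (adjusted p = 0.033) where 0.142% of genes were called lower. This call was lost when any of 13 single libraries was left out, with values of -2.24 to -2.49 and adjusted p of 0.0518 to 0.093. Against A17 the response differed by -1.24 ± 0.46 in nsp2 (adjusted p = 0.0627, 17.1% of genes called) and by 1.23 ± 0.60 in nsp1 (adjusted p = 0.13, 27.9%). For single regimes against +P+N, none of the 6 tests of mutant by regime was called for SPX1, where for nsp1 1.36% of genes were called with +P-N, 31% with -P+N and 4.68% with -P-N, and for nsp2 2.04% with +P-N and 0.702% with -P-N. The lowest adjusted p among them was that of nsp2 at -P+N, with a log2 difference of -1.80 ± 0.62 (adjusted p = 0.0635, 15.4% of genes called).

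Hairy roots were given both phosphate and nitrate for the 21 days before harvest. They give SPX1 under the NSP1 and NSP2 transgenes where neither nutrient was withheld in that time. SPX1 had 22, 39 and 36 counts in NSP1ox, 9, 10 and 9 counts in NSP2ox and 4, 8 and 2 counts in miRR-NSP2ox, against 0, 1 and 4 counts in EV. The levels were 1.56 ± 0.43 CPM in NSP1ox, 0.427 ± 0.094 CPM in NSP2ox and 0.225 ± 0.137 CPM in miRR-NSP2ox, against 0.0823 ± 0.1022 CPM in EV (SD, n = 3). NSP1ox libraries lay above all others, NSP2ox libraries lay above those of EV, and miRR-NSP2ox libraries overlapped both NSP2ox and EV. Seedling and hairy root libraries were normalized separately and grown differently, and their levels were not tested against each other.

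**Figure D3:**
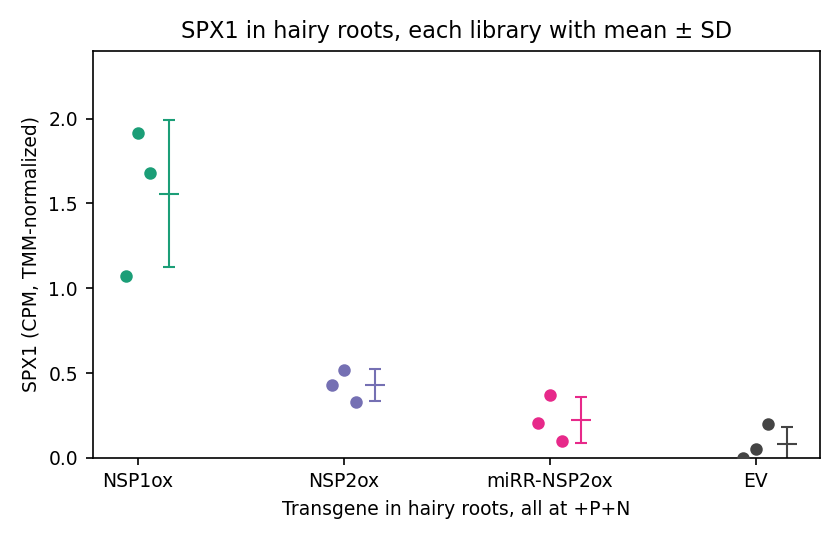
SPX1 level (TMM-normalized CPM) in each of the 12 hairy root libraries by transgene, with the mean and SD of each group beside its points. NSP1ox libraries reach 1.07 to 1.92 CPM, above every library of NSP2ox, miRR-NSP2ox and EV.

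SPX1 was 18.2-fold higher in NSP1ox than in EV on summed counts (97 against 5 counts, counting interval 7.54 to 57.4). The log2 fold change was 4.09 ± 0.65 (adjusted p = 0.00247), the 45th largest of 24004 genes, of which 6.59% were called higher. The value rested on few EV counts, and without EV replicate 3, which held 4 of the 5, it was 5.59 (adjusted p = 0.00713). EV replicate 1, the library with the highest share of scaffold counts, was the one with 0 SPX1 counts, and without it the value was 3.58 (adjusted p = 0.00625). SPX1 passed the filter in hairy roots through 4 libraries, the 3 of NSP1ox among them, so here too it was tested only because it was high in the group that differed.

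In NSP2ox, SPX1 had 28 counts against 5 in EV, a ratio of 4.86 (1.85 to 16.1) and a log2 fold change of 2.23 ± 0.80 that was not called (adjusted p = 0.0588, 25.7% of genes called). With all 12 libraries in one fit it was called (2.23, adjusted p = 0.0334), as it was without EV replicate 3 (3.73, adjusted p = 0.0334). In miRR-NSP2ox the ratio to EV was 2.67 (0.907 to 9.46), with a log2 fold change of 1.34 ± 0.97 (adjusted p = 0.326, 30.6% of genes called), and without EV replicate 3 the value was 2.84 (adjusted p = 0.153). Against NSP2ox it was 0.549 (0.267 to 1.08), with a log2 fold change of -0.88 ± 0.60 (adjusted p = 0.342, 20.5% of genes called).

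Set against each other directly, a comparison added after the values had been seen, NSP1ox exceeded NSP2ox 3.75-fold in SPX1 (2.44 to 5.93), with a log2 fold change of 1.88 ± 0.39 (adjusted p = 0.0139) and 3.63% of genes called higher. The call was lost without NSP1ox replicate 3 (1.82, adjusted p = 0.0656) and without NSP2ox replicate 3 (1.71, adjusted p = 0.0817). SPX1 was tested in hairy roots only because it was high in NSP1ox, so the call is not independent of the filter and the comparison is a description.

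SPX1 was set beside other genes induced by phosphate starvation in A17. Besides SPX1, 106 genes were called higher with a fold change over 4 at both -P+N and -P-N. Of these, 94 were also called higher at +P-N, and 12 were, like SPX1, not called there. In hairy roots 73 of the 106 could be tested. In NSP1ox against EV, 10 were called higher and 14 lower, with a median log2 fold change of 0.00 and a range of -3.23 to 2.68, beside a median of 0.00 and shares of 6.59% higher and 5.16% lower over all genes tested. The SPX1 value of 4.09 lay above that range, but SPX1 was tested in hairy roots only because it was high in NSP1ox. Its place beside the 73 genes is therefore a description. In NSP2ox, 30 were higher and 15 lower (median 0.40), where 14.2% of all genes were higher and 11.5% lower. In miRR-NSP2ox, 27 were higher and 15 lower (median 0.30), where 15.9% of all genes were higher and 14.7% lower.

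The 8 apocarotenoid genes as a set differed from SPX1 in NSP1ox. In NSP2ox and miRR-NSP2ox the SPX1 values also lay above EV, without a call, and the SPX1 difference between these lines was not called. In NSP1ox against EV none was called higher and 5 were called lower (median -0.55), where 6.59% of all genes were higher and 5.16% lower. All 8 were called higher against EV in NSP2ox (median 1.15, with 14.2% of all genes higher) and in miRR-NSP2ox (median 1.53, with 15.9% higher). The study picked its list partly for activation by miRR-NSP2 overexpression in these libraries. The rise in miRR-NSP2ox was therefore set by that choice, and the contrast between constructs is not independent. In NSP1ox against NSP2ox all 8 were lower (median -1.60, with 4.3% of all genes lower), where SPX1 was higher. PSY had 15, 3 and 2 counts in NSP1ox, 67, 121 and 152 counts in NSP2ox and 204, 214 and 200 counts in miRR-NSP2ox, against 8, 28 and 28 counts in EV. Its lowest libraries, with 3 and 2 counts, were in NSP1ox, where those of SPX1 were highest. NSP1ox replicate 1 of PSY (15 counts) still exceeded EV replicate 1 (8 counts). CYP722C went the other way without a call, with 20.6 to 22.6 CPM in NSP1ox against 16.2 to 19.2 CPM in EV.

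**Figure D4:**
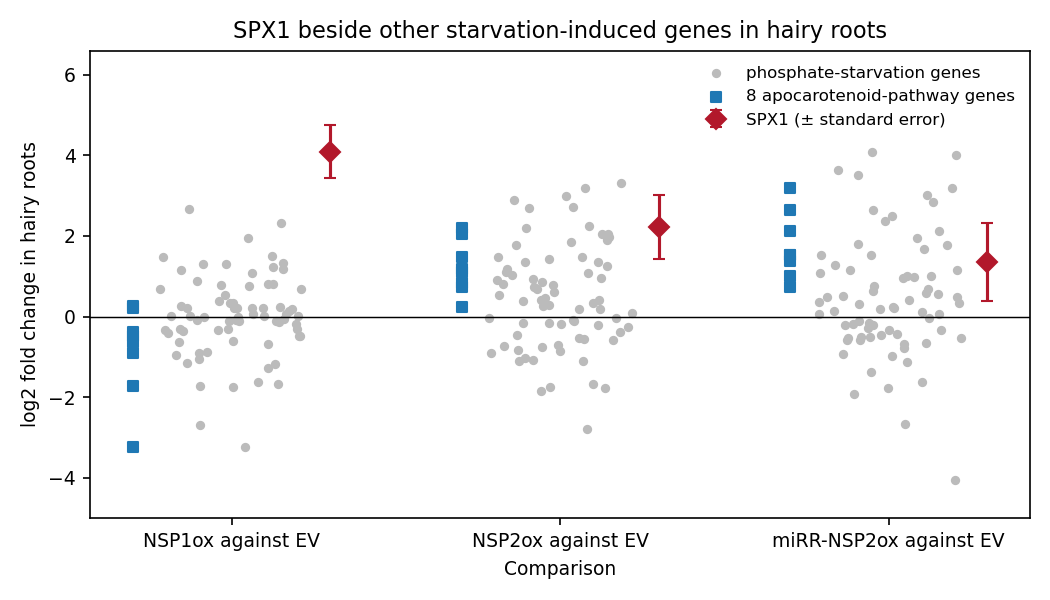
Log2 fold change against EV in hairy roots of SPX1 (diamond, with its standard error), of 73 other genes that were called higher over 4-fold at -P+N and -P-N in A17 (circles, spread sideways at random) and of the 8 apocarotenoid genes (squares). In NSP1ox the SPX1 value of 4.09 lies above all circles and squares, and in NSP2ox and miRR-NSP2ox it lies within their range. SPX1 was tested in hairy roots only because it was high in NSP1ox. The squares were chosen by the study partly for activation by miRR-NSP2 overexpression.

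The genes whose pattern was most like that of SPX1 over the 36 seedling libraries, by Pearson correlation of log2 CPM, were Medtr3g105980, Medtr8g015570, Medtr1g075720, Medtr4g102170 and Medtr5g096540, with r between 0.857 and 0.863. The libraries share regimes, so r is a description, and 104 genes exceeded 0.8. The 5 followed phosphate with far smaller changes than SPX1. Their log2 fold changes for -P against +P averaged over genotype and nitrate were 0.85, 0.55, 0.43, 0.52 and 0.35, beside 3.10 for SPX1. Over the 50 most alike genes these values ran from 0.19 to 3.17, with a median of 0.47, so the size of the SPX1 change was not the largest. None of the 5 was called in NSP1ox against EV, where their log2 fold changes ran between -0.14 and 0.12, beside 4.09 for SPX1. SPX1 was tested there only because it was high in NSP1ox. Of the 50 most alike genes, 1 was called higher and 3 lower there, with values between -0.63 and 0.34, beside shares of 6.59% higher and 5.16% lower over all genes tested.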

How the data were processed

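RNA of whole roots (36 libraries) and hairy roots (12 libraries) of M. truncatula was analysed. Per the labels and the study's methods, poly-A RNA was sequenced in paired ends, reads were checked with FastQC, mapped with STAR to Mt4.0v1 and counted per gene with featureCounts. The authors deposited whole-number counts without normalization. Strand use is not given in the sources used here. Groups and replicate numbers were taken from the labels. A gene was tested if 3 or more libraries were at or above the level that 10 counts give in the median library, 0.492 CPM in seedling roots (24630 genes) and 0.494 CPM in hairy roots (24004 genes). Each comparison was fitted on its own libraries with edgeR 4.0.16 (TMM, quasi-likelihood test) in R 4.3.3, and p-values were adjusted by the Benjamini-Hochberg method over all genes of the table. Standard errors are the size of the log2 fold change divided by the square root of F. Intervals of count ratios are exact (Clopper-Pearson, 95%) and, like limits from 0 counts, cover counting error only. Correlations used log2 CPM with a prior count of 2. Alternatives were RLE size factors, library totals, a filter in at least 1 library, no filter, DESeq2 1.42.0, a replicate block, all groups in one fit, removal of the hairy root scaffold genes and each library left out in turn. The genes named are the members, the 5 genes most correlated with SPX1 and the 8 apocarotenoid genes of the study. Members and lists were chosen with earlier results of these data known. Contrasts averaged over groups, the direct comparison of NSP1ox with NSP2ox and the lists of 50 and 106 genes were added after the values had been seen.

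The gene table used here (39590 genes of MtrunA17r5.0) matched none of the 50894 identifiers, so positions, sequences, green-tissue markers and the transcripts of NSP1 and NSP2 were not used here, and the labels were not checked against the targeted genes. A ratio of SPX3 to SPX1 had been planned, and with 0 SPX3 counts it would only restate SPX1. On simulated counts with 200 changed genes, the test recovered 77% of genes changed by 1 and 93% of those changed by 2 on the log2 scale for -P+N against +P+N in A17, and 71% and 93% for NSP1ox against EV. For nsp2 by -P+N it recovered 65% and 83%. The changed genes were drawn at random from the tested genes above a low mean count, most with more counts than SPX1. These shares therefore do not give the power for SPX1. Unchanged genes made up 11% of the calls for -P+N against +P+N in A17, 6.29% for NSP1ox against EV and 7.5% for nsp2 by -P+N, above the 5% aimed at. For -P against +P averaged over genotype and nitrate the share was 3.92%. The simulation changed 200 genes, far fewer than were called in the data, so these shares do not carry over to the data.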

Additional observations from a re-analysis of the deposited data

Results flagged for a closer look

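The size of the SPX1 phosphate response differed between the mutants by a test of the difference itself. Averaged over nitrate, the log2 fold change of -P against +P was lower in nsp2 than in nsp1 (log2 difference -2.47 ± 0.54, edgeR adjusted p = 0.033). The call was lost when any of 13 single libraries was left out, with adjusted p of 0.0518 to 0.093. At +P the gene was higher in nsp2 than in nsp1 (2.21 ± 0.49, adjusted p = 0.0011), and all 6 nsp2 libraries lay above all 6 nsp1 libraries. At -P the value was -0.25 ± 0.23 (adjusted p = 0.503), an average that includes -1.0 ± 0.38 at -P+N (adjusted p = 0.123). The nsp1 libraries with phosphate held 9 SPX1 counts in all, and the contrast was chosen after the values had been seen.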

How the results depend on the processing

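The 6 calls of SPX1 at -P+N and -P-N and the call in NSP1ox against EV kept their direction and their side of the threshold under every alternative, apart from nsp2 at -P+N, which DESeq2 did not call (1.37, adjusted p = 0.0523). With each library left out in turn, that log2 fold change ranged from 1.19 to 1.56, with 4 calls lost. All groups in one fit called nsp2 against nsp1 at -P+N (-0.98, adjusted p = 0.0297) and NSP2ox against EV (2.23, adjusted p = 0.0334), which the fits on 6 libraries did not. With a library left out, NSP2ox against EV ranged from 1.72 to 3.73, NSP1ox against NSP2ox from 1.70 to 2.08, nsp2 against A17 averaged over +P from 0.73 to 1.42, and the phosphate response from -2.91 to -2.24 for nsp2 against nsp1 and from -1.71 to -1.03 for nsp2 against A17, where leaving out A17 +P-N replicate 2 (-1.71), A17 +P+N replicate 3 (-1.49) or nsp2 -P+N replicate 2 (-1.32) gave a call. Values that were not called could change sign, as +P-N against +P+N in A17 did without A17 +P-N replicate 2 (-0.85). The cause of these shifts was not tested. DESeq2 gave no adjusted p for nsp2 by +P-N, and that value is left out. With +P groups of 3 to 22 SPX1 counts, depth limits the statements on roots given phosphate.

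Replicate numbers shared by groups were not treated as pairs, since in no comparison did all same-numbered libraries deviate together (correlation over 0.1). That cut cannot exclude pairing. For nsp1 against A17 at +P-N the correlations ran from 0.0855 to 0.0984. A replicate block changed no call: it gave 3.14 (adjusted p = 0.00149) for -P+N against +P+N in A17 and 4.16 (adjusted p = 0.0112) for NSP1ox against EV. No paired analysis of a ratio to SPX3 was possible because SPX3 had no counts.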
